A study of Arabidopsis thaliana with 9 samples.

Results

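The transcripts described here were at once less abundant in wox5-1 root tips and more abundant in seu-3 root tips than in the wild type. Of 33560 gene identifiers measured in Arabidopsis thaliana, 12057 averaged 5 FPKM or more over 9 libraries, and 128 of these were chosen by their change in both mutants. The rule required the mean log2(FPKM + 1) to lie at least 0.7 below Col-0 in wox5-1 and at least 0.5 above Col-0 in seu-3. FPKM counts fragments per kilobase of transcript, scaled to the mapped fragments of the library, so it can be compared between genes of different length. The rule itself used the wox5-1 and seu-3 changes of all 9 libraries, so these changes are given as a description and no test of them is made for the chosen genes.

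The study sequenced RNA from root tips of 3 genotypes, with 3 libraries each. Seedlings of all 3 genotypes were kept at 4 °C for 2 days, then grown upright for 5 days on medium with 1% sucrose in 16 h of light and 8 h of dark. Col-0 was the wild type, wox5-1 is a mutant in the homeobox gene WOX5, and seu-3 is a mutant in SEUSS (SEU); no treatment, transgene or sorting separated these libraries. The length of root taken is given as about 1 mm in one place and about 3 mm in another, and each mutant was represented by 1 allele. The labels do not say whether the 3 libraries of a genotype came from separate sowings, so spreads and p-values measure the variation between these libraries.

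The root tip holds the root cap, the dividing cells of the meristem and, further from the tip, cells that elongate and differentiate. WOX5 encodes a transcription factor made in the quiescent centre, where it keeps the neighbouring columella stem cells from differentiating. SEU encodes a co-regulator that binds no DNA by itself and acts with LEUNIG and with DNA-binding partners. In bulk tissue, fewer cells of a type and less RNA per cell cannot be told apart, and this holds for every level below.

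SEU followed its label, while WOX5 was too low in both mutants to tell them apart. SEU was at 18.7, 13.3 and 13.2 FPKM in Col-0, at 4.73, 5.22 and 4.19 in seu-3 and at 13.3, 13.3 and 13 in wox5-1, a change of -1.48 ± 0.14 (SE) in seu-3 with an adjusted p of 0.000580 by limma, and its annotation overlaps that of AT1G43860. WOX5 was at 0.301, 0.461 and 0.524 FPKM in Col-0, at 0.0884, 0 and 0 in seu-3 and at 0, 0 and 0 in wox5-1, which is too low for a test. Root markers were present in every library: 14 root hair genes summed to 3815 to 3907 FPKM in Col-0, 4231 to 5180 in seu-3 and 2426 to 3513 in wox5-1, in the same order as the chosen genes. By limma 6 of the 14 were called lower in wox5-1, and 1 was called higher and 2 lower in seu-3. Of all genes, 13.5% were called lower in wox5-1, and 6.66% higher and 34.2% lower in seu-3. PRP3 alone averaged 1878 FPKM in Col-0 and was called in neither mutant. Other summed root markers did not keep the order of the chosen genes. Casparian strip and suberin genes summed to 2212 to 3549 FPKM in Col-0, 1727 to 2455 in seu-3 and 1817 to 2854 in wox5-1. In the same order of genotypes, root cap genes summed to 168 to 207, 178 to 182 and 104 to 121. Stem cell niche genes summed to 158 to 188, 126 to 140 and 236 to 277. The summed FPKM of 18 mitosis genes ran opposite to the root hair sums. It was 111 to 147 in Col-0, 29.8 to 65.5 in seu-3 and 195 to 251 in wox5-1. Pollen genes summed to 4.78, 10.9 and 77.9 FPKM in wox5-1, highest in replicate 3, against 0.941 to 2.02 in the other 6 libraries, where AGP23, AGP40, VGD1 and PPME1 were all listed at 0. The part of these shifts in the results below was not tested. Low FPKM steps were blurred and gave only a rough depth of 7.50 to 13.3 M fragments per library.

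The 128 genes made up 1.16% ± 0.0186 of all FPKM in Col-0 (SD, n = 3), 2.05% ± 0.167 in seu-3 and 0.592% ± 0.104 in wox5-1. Most of this came from the 6 genes most abundant in Col-0. On average these held 5586 of 9331 FPKM in Col-0, 9947 of 16466 in seu-3 and 2984 of 4870 in wox5-1. The median change of the 128 was -0.97 in wox5-1, from -2.97 to -0.70, and 0.70 in seu-3, from 0.50 to 2.26. Over all 17062 genes averaging 1 FPKM or more the medians were 0.05 and -0.24. Set directly against each other, the seu-3 mean was 3.73 times the wox5-1 mean for the median gene, with a range of 2.30 to 61.9. The wox5-1 change was the larger of the pair in 98 genes and the seu-3 change in 30, under thresholds that themselves differ; 18 genes changed by at least 1 log2 unit in both mutants. Both comparisons share the Col-0 libraries, so an error in a Col-0 mean shifts both changes of that gene the same way.

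**Figure D1:**
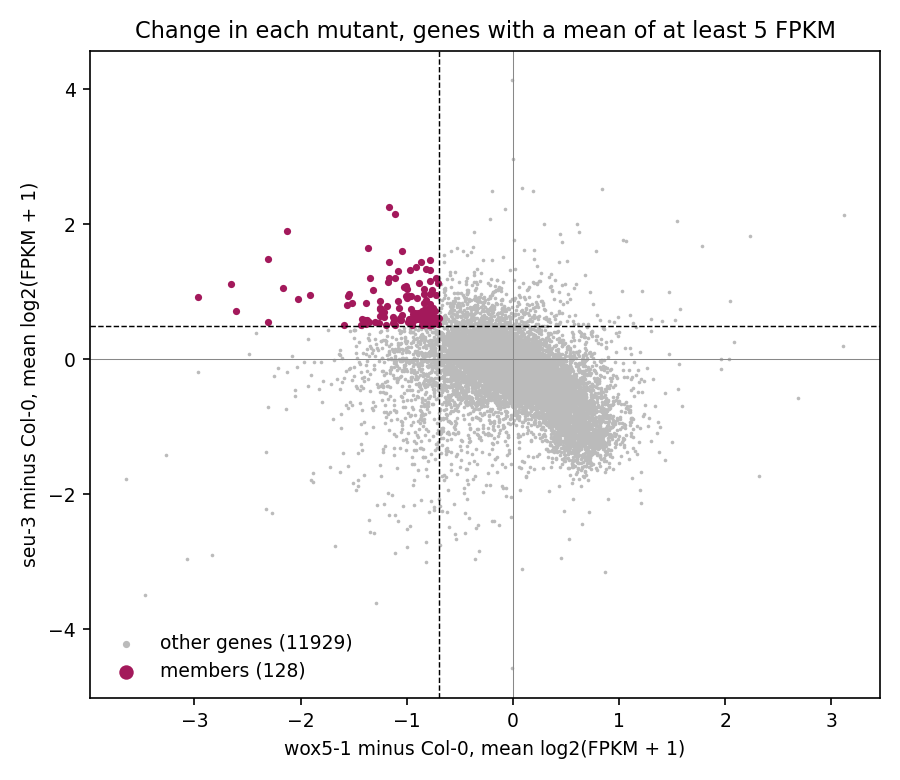
Change in wox5-1 (x axis) and in seu-3 (y axis), each as mean log2(FPKM + 1) minus that of Col-0, for the 12057 genes averaging 5 FPKM or more. The 128 chosen genes fill the upper left corner cut by the dashed thresholds at -0.7 and 0.5; 853 genes met the wox5-1 threshold and 736 the seu-3 threshold.

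The rule used the means of these same libraries, so the counts and medians per library are a description, from which nothing is read. In the 3 wox5-1 libraries 128, 127 and 128 of the genes lay below their Col-0 mean, with medians of -1.21, -0.86 and -0.89 in replicates 1 to 3. In seu-3 128, 127 and 126 lay above it, with medians of 0.78, 0.59 and 0.79. The 3 Col-0 medians were 0.05, -0.01 and -0.07. Replicate 1 was thus the lowest wox5-1 library and replicate 2 the lowest seu-3 library. Every mutant median lay outside the Col-0 range, to which the rule itself leads. Over all genes averaging 1 FPKM or more, library medians were 0.051 to 0.061 in wox5-1 and -0.30 to -0.18 in seu-3. The 128 genes varied more between wox5-1 libraries than other genes did. Their median coefficient of variation was 24.3% there, against 12.3% for the other 11929 genes of at least 5 FPKM. It was 13.7% against 9.32% in Col-0 and 11.8% against 10.5% in seu-3. These figures were not matched for abundance, and the rule itself required a lower level of the members for wox5-1. By genotype mean, the median member stood at 6.38 FPKM across wox5-1 libraries, against 15.7 across Col-0 libraries. The median other gene stood at 19.6 FPKM across Col-0 libraries. Whether the wider spread goes with the lower level was not tested.

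**Figure D2:**
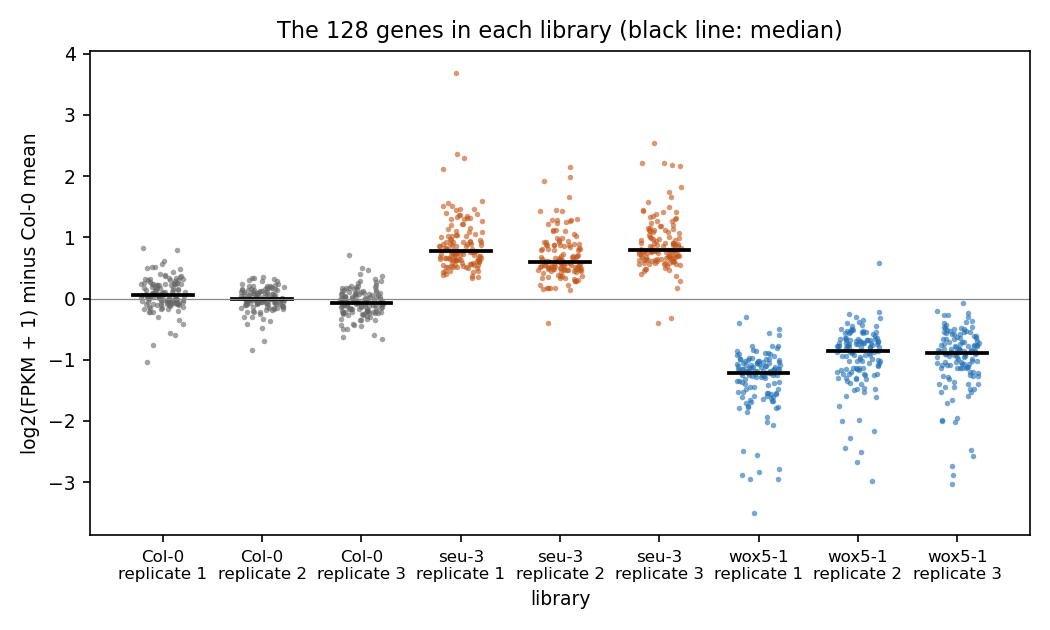
Each point is one of the 128 genes in one library, as log2(FPKM + 1) minus the Col-0 mean of that gene; black lines are medians. Library medians lie between -1.21 and -0.86 in wox5-1, between 0.59 and 0.79 in seu-3 and between -0.07 and 0.05 in Col-0.

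By limma with Benjamini-Hochberg adjustment at 0.05 over all 17062 genes, 116 of the 128 were called lower in wox5-1, where 13.5% of all genes were called lower and 13.7% higher. In seu-3 98 were called higher, where 6.66% of all genes were called higher and 34.2% lower. Both calls were made for 95 of the 128, against 1.82% of all genes. Every wox5-1 library lay below every Col-0 library for 117 of them (19.9% of all genes), every seu-3 library above every Col-0 library for 118 (11.5%), and both held for 110 (4.65%). The choice used these contrasts, so nothing is read from the counts. The same holds wherever genes below are described as separate, or not overlapping, between genotypes. Median-ratio scaling of the libraries, which moved the split of all seu-3 calls from 1136 higher and 5830 lower to 3191 higher and 2916 lower, raised the number of genes meeting the rule to 286, with all 128 among them. Leaving out 1 library also moved the background: 997 genes were called lower in wox5-1 with replicate 2 of Col-0 left out and 1166 with replicate 1 of wox5-1 left out, instead of 2307. The seu-3 count of 1136 became 701 with replicate 3 of Col-0 left out and 681 with replicate 3 of seu-3 left out.

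In a library that the choice did not use, 89.5% to 100% of the chosen genes changed in the direction of the rule. Among the other genes of at least 5 FPKM that share was 30.5% to 50.6%. Shares past the threshold itself were lower. When the rule was applied with replicate 1 of wox5-1 left out, it chose 96 genes, and 90 of them (93.8%) were at or below -0.7 in that library, against 13.6% of the other genes. Without replicate 2 the figures were 84 of 146 (57.5%, against 4.71%), and without replicate 3 they were 91 of 191 (47.6%, against 6.58%). For seu-3, 98 of 115 genes (85.2%, against 5.49%) passed 0.5 in replicate 1, 80 of 146 (54.8%, against 4.81%) in replicate 2 and 89 of 107 (83.2%, against 6.62%) in replicate 3. The left-out value was in each case set against the same Col-0 mean that the choice used. All libraries of the other mutant were used in the choice as well, so these shares are a description and not independent support. The list chosen with replicate 3 of wox5-1 left out was the longest and passed least often.

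**Figure D3:**
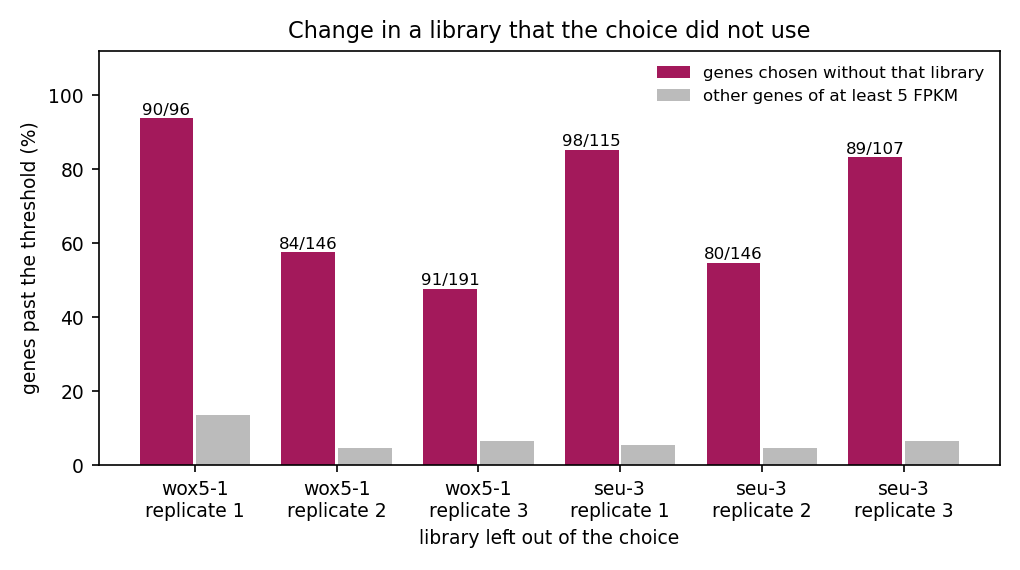
Bars give the share of genes at or past the rule's threshold in a library that was left out when the genes were chosen, with the number of genes above each purple bar, and in grey the same share among all other genes of at least 5 FPKM. The shares run from 47.6% to 93.8% for the chosen genes and from 4.71% to 13.6% for the others.

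At the edge of the rule, MGD3 and FDH were just inside the seu-3 threshold, both at 0.50, while ATPUP20 and CYP710A1, also at 0.50 after rounding, were just outside. AT1G09170 and PIP1;4 were just inside the wox5-1 threshold at -0.70, and AT5G54030 and AT3G53600 fell just outside it. AT5G02330 and AT4G12530, at means of 5.00 and 5.11 FPKM, passed the abundance minimum that AT2G36500 and MYB51 missed at 4.86 and 4.84. Genes such as AT4G12530, AT3G55290 and GSTF7 averaged below 5 FPKM in Col-0 and in wox5-1. They passed that minimum only through seu-3, where they were high. The genes on either side of each threshold had almost the same values.

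Ranked by the smaller of the pair of changes, AT5G04120 came first, which RefSeq describes as a phosphoglycerate mutase family protein. It was at 31, 31.6 and 26.8 FPKM in Col-0, at 90, 120.4 and 138 in seu-3 and at 4.44, 5.34 and 9.16 in wox5-1, changes of -2.12 ± 0.23 (SE) and 1.91 ± 0.23 (SE). No library of one genotype reached the range of another, and the seu-3 mean was 18.4 times that of wox5-1; the gene overlaps AT5G04130, which the file also lists. The GDSL-type lipase AT2G03980, of a family that cleaves lipid esters, was at 9.74, 6.37 and 6.95 FPKM in Col-0, at 21, 20 and 29.2 in seu-3 and at 0.247, 0.92 and 1.17 in wox5-1. It was close to absent in wox5-1 and highest in seu-3, without overlap. AT3G13650, a dirigent-like protein of a family that guides the coupling of phenolic radicals, was at 70.3, 66.2 and 44.1 FPKM in Col-0, at 164, 162 and 161 in seu-3 and at 22.6, 23.5 and 32.2 in wox5-1, again in separate ranges. Of the 12 genes with the largest smaller change, GSTF7 and AT1G51035 were the ones whose libraries overlapped, and both are described with the uncertain cases below. The others included the oxidoreductase-like AT3G55290 (-1.35 in wox5-1 and 1.20 in seu-3) and AT5G35735, an auxin-responsive family protein (-1.08 in wox5-1 and 1.31 in seu-3). The largest loss in wox5-1 was that of AT5G26270, an uncharacterized protein, at 26.7, 30 and 25.3 FPKM in Col-0, at 46.4, 35.5 and 88.2 in seu-3 and at 2.82, 2.58 and 2.46 in wox5-1; its seu-3 libraries were higher than Col-0 but spread widely.

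**Figure D4:**
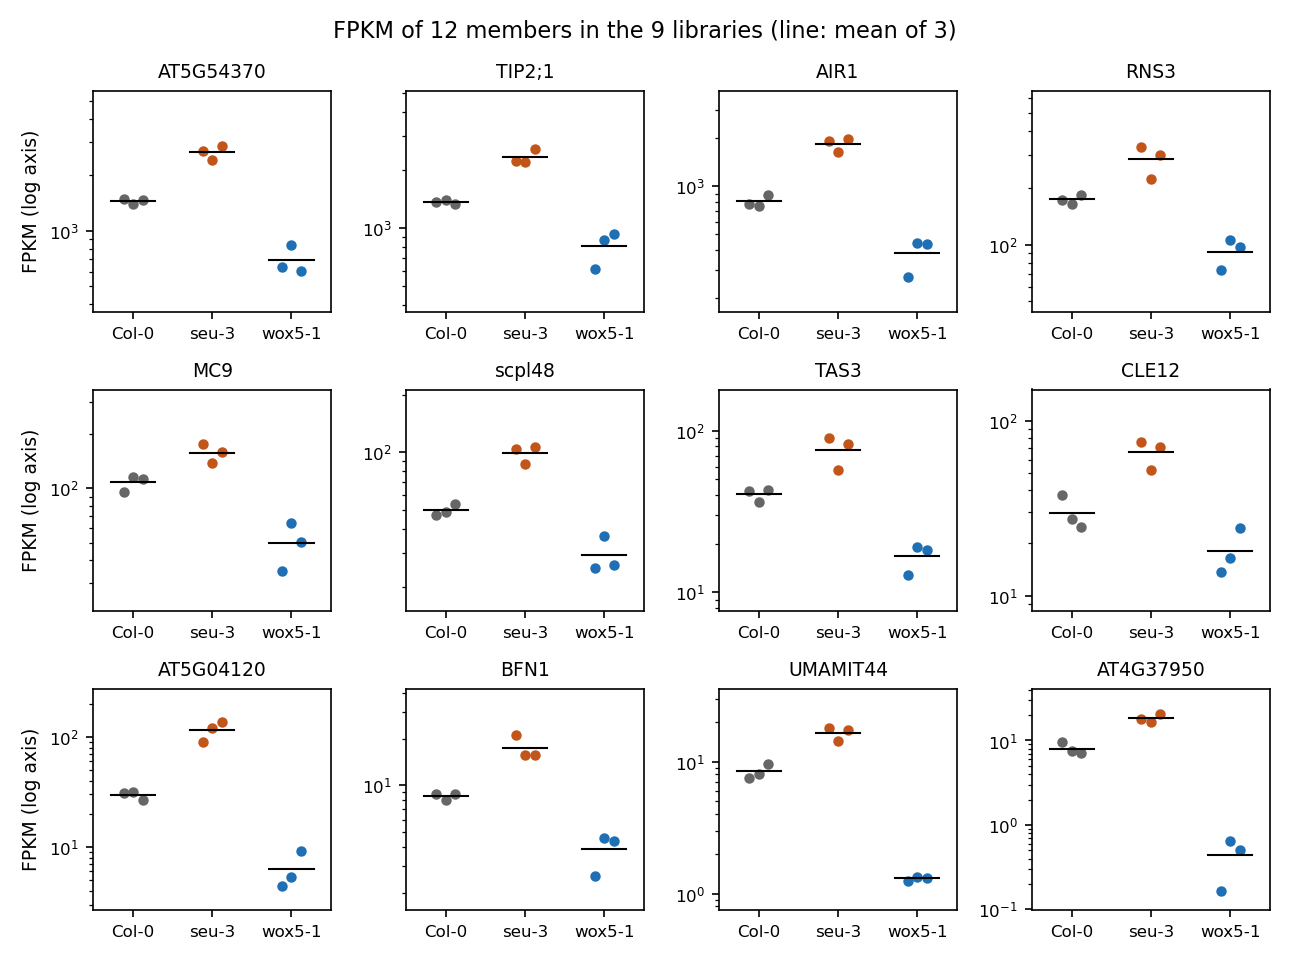
FPKM on a log axis for 12 of the 128 genes in the 3 libraries of each genotype; points are libraries and black lines means of 3. In each panel shown the seu-3 libraries lie above and the wox5-1 libraries below all Col-0 libraries, as for BFN1 with 15.6 to 21.2 FPKM in seu-3 and 2.59 to 4.57 in wox5-1.

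Of the 128, 7 encode nucleases or proteases. This and the other groupings by role below were put together after the values had been seen and are not tested. In Arabidopsis, BFN1, RNS3, MC9 and SCPL48 (written scpl48 in RefSeq) are known as genes switched on in cells that go through developmental cell death, such as xylem vessels and the outer root cap. BFN1, a nuclease that degrades DNA and RNA, was at 8.85, 8.1 and 8.8 FPKM in Col-0, at 21.2, 15.7 and 15.6 in seu-3 and at 2.59, 4.57 and 4.39 in wox5-1. RNS3, a secreted-type ribonuclease, was far more abundant, at 173, 164 and 184 FPKM in Col-0, at 329.6, 223 and 299 in seu-3 and at 73.1, 106 and 97.4 in wox5-1. MC9, a metacaspase that cuts proteins after basic residues, was at 95.4, 116 and 113 FPKM in Col-0, at 176, 137 and 159 in seu-3 and at 34.9, 64.4 and 50.6 in wox5-1. In all 3 the wox5-1 libraries were the lowest and the seu-3 libraries the highest, without overlap. MC9 in seu-3 was not called by limma. The xylem genes XCP1 and XCP2 did not follow, at -0.17 and -0.25 in wox5-1 and at -0.40 and -0.29 in seu-3. Of 8 tested genes in the xylem and phloem list, these included, none was called in either mutant.

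SCPL48, a serine carboxypeptidase-like protein whose annotation overlaps AT3G45020, was at 47.3, 48.9 and 53.9 FPKM in Col-0, at 104, 87.1 and 106 in seu-3 and at 24.9, 36.7 and 26 in wox5-1. The metacaspase MC5 and the carboxypeptidase-like SCPL51 and SCPL10 changed by -1.24, -1.52 and -0.91 in wox5-1 and by 0.70, 0.83 and 1.36 in seu-3. All 7 had separate ranges in both comparisons, as had 110 of the 128 and 4.65% of all genes. AT4G04460, an aspartyl protease with a saposin-like part, was named after its values were seen: it fell in wox5-1 by 1.50 (adjusted p = 0.00174 by limma) but missed the threshold in seu-3 at 0.43 ± 0.19 (SE), with an adjusted p of 0.0943 by limma. It was called there after median-ratio scaling (adjusted p = 0.0209), and also with replicate 2 of seu-3 or replicate 1 of wox5-1 left out. It is not one of the 128.

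The rule itself required every member to be lower in wox5-1 and higher in seu-3. Nothing is therefore read from the 4 cell death genes moving together. The 200 bases before the annotated start of these 4 genes are shown because the genes have a shared known setting. They are from RefSeq, build TAIR10.1, read 5′ to 3′ on the strand of the gene; capitals mark matches to any of 10 motifs searched on both strands.
BFN1: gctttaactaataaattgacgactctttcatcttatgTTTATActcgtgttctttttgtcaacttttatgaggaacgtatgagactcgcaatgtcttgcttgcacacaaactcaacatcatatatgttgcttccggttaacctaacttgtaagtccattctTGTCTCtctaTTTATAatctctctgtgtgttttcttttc
RNS3: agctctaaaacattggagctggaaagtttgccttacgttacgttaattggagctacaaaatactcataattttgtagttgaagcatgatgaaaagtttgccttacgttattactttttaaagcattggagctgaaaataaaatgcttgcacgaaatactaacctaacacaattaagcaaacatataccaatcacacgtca
MC9: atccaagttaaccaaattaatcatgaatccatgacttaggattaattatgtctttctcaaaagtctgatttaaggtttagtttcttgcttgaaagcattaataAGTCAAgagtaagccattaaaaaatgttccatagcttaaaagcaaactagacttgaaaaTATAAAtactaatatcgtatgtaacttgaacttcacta
scpl48: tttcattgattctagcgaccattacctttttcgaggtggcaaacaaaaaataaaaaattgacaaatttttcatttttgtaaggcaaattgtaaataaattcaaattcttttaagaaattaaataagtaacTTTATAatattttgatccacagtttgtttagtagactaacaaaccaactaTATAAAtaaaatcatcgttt
They lie at chr1:3752781-3752980 (minus strand), chr1:9293863-9294062 (minus strand), chr5:1153540-1153739 (plus strand) and chr3:16465944-16466143 (plus strand). Positions are those of the first base of a match, with -1 just before the start. The BFN1 stretch holds the auxin response element TGTCTC at -39 and the TATA box TATAAA, on the other strand, at -29 and -163. MC9 has a TATA box at -38 and the W-box TTGACT, on the other strand, at -97. SCPL48 has TATA boxes at -20 and, on the other strand, at -70. None of the 10 motifs lies in the RNS3 window. The 4 windows thus share no motif of the set, and a match is a description of letters, not a binding site.

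BFN1 also belongs to a list of 8 measured root cap genes, none of the others being among the 128. Of the other 7, 4 were called lower and 1 higher in wox5-1, and none was called higher and 3 were called lower in seu-3. Over all genes 13.5% were called lower and 13.7% higher in wox5-1, and 6.66% higher and 34.2% lower in seu-3. At an unadjusted limma p below 0.05, 1 of the 7 was higher in seu-3. The root cap factors BRN1 and BRN2 fell in wox5-1 by 0.95 and 1.31 and were not called in seu-3, where they stood at 0.40 and -0.14. SMB, which acts with them in cap maturation, fell in both mutants, by 0.66 and 1.01, a call lost in wox5-1 with replicate 1 of wox5-1 left out. After median-ratio scaling 2 of the 7, BRN1 and ARF10, were called higher in seu-3.

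Another 4 genes encode small lipid-transfer-like proteins, 3 of them from a single stretch of chromosome 4. AIR1, first known as auxin-induced in root cultures and a hybrid proline-rich protein, was at 779.8, 757 and 879 FPKM in Col-0, at 1931, 1636 and 1991 in seu-3 and at 271, 440.4 and 433 in wox5-1. Its neighbour AT4G12545 was at 931, 908 and 996 FPKM in Col-0, at 1649.7, 1313 and 1621 in seu-3 and at 440.5, 602 and 629.7 in wox5-1. AT4G12530 was scarce in the wild type, at 2.83, 1.57 and 1.45 FPKM in Col-0, at 11.5, 11.8 and 15.7 in seu-3 and at 0, 0 and 1.13 in wox5-1. Its seu-3 change, 2.26 ± 0.30 (SE), was the highest of all 128. It passed the abundance minimum only through seu-3, so the rule itself required a high seu-3 level of this gene. AT3G22570, of the same protein class on chromosome 3, was at 147, 145 and 152 FPKM in Col-0, at 275, 220.3 and 251 in seu-3 and at 64.6, 85.1 and 78.2 in wox5-1. In each of these the 3 genotypes occupied separate ranges.

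AIR1 (chr4:7439115-7439805) and AT4G12545 (chr4:7434199-7434858) were the only members next to each other in the annotation of protein-coding genes, 4256 bases apart on the plus strand. AT4G12530 (chr4:7427834-7428563) lies 5635 bases before AT4G12545 on the minus strand. AIR1 and AT4G12545 are close relatives: their transcripts were 89.4% identical over 671 aligned bases, so fragments could have been exchanged between them in alignment. The bases before their starts are shown because the likeness extends into them, at 88.9% identity over 199 bases, and AT4G12530 is shown beside them as the nearby gene that is not alike.
AIR1: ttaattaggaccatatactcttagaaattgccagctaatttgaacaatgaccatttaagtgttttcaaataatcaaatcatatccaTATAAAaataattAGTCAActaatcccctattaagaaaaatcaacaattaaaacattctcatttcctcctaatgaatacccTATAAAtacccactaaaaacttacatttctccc
AT4G12545: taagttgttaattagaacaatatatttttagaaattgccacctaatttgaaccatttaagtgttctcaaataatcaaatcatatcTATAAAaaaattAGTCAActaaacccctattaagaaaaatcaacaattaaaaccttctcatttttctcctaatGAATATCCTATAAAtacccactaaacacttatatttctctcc
AT4G12530: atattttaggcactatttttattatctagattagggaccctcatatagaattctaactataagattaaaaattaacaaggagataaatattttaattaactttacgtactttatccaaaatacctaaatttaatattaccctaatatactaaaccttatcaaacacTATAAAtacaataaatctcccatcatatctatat
Coordinates in TAIR10.1 are chr4:7438915-7439114 and chr4:7433999-7434198 on the plus strand and chr4:7428564-7428763 on the minus strand. AIR1 and AT4G12545 share a TATA box at -33 and -34, a further one at -114 and -115 and the W-box TTGACT, on the other strand, at -101 and -103. AT4G12545 alone has P1BS, searched as GNATATNC, directly before its first TATA box. AT4G12530 has a TATA box at -34 and no W-box.

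Their neighbours did not all move alike. AT4G12540, an uncharacterized protein between AT4G12530 and AT4G12545, stood at 0.11 in wox5-1 and -0.88 in seu-3. AT4G12510 and AT4G12520, which lie before AT4G12530 and are of the same class and among the most abundant here, were at 2546, 2841 and 2675 and 3154, 3176 and 3068 FPKM in Col-0 and rose in seu-3 by 1.05 and 0.93 (adjusted p = 0.000915 and 0.000954 by limma). In wox5-1 they stood at -0.35 and -0.22, with adjusted p of 0.0448 and 0.115 by limma. The former call was lost when any Col-0 library, replicate 1 of seu-3 or replicate 1 or 3 of wox5-1 was left out, and with no minimum on the genes fitted. AZI1, a defence-related member of the class, went the opposite way, at 3.13, 0.921 and 5.31 FPKM in Col-0, at 0.374, 0 and 0 in seu-3 and at 16.7, 17.5 and 17.9 in wox5-1. Its changes were 2.32 and -1.73, with adjusted p of 0.00368 and 0.00624 by limma. On the far side of AZI1, APT4, an adenine phosphoribosyltransferase gene of purine salvage, is again one of the 128, at 7.32, 5.46 and 5.65 FPKM in Col-0, at 9.29, 10.1 and 12.8 in seu-3 and at 0, 0.245 and 0.274 in wox5-1.

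The most abundant of the 128 was AT5G54370, which RefSeq describes as late embryogenesis abundant (LEA)-like, at 1485, 1393 and 1469 FPKM in Col-0, at 2675, 2387 and 2842 in seu-3 and at 635, 838 and 605 in wox5-1. LEA proteins are best known from drying seeds; the role of this root gene is not given. AT3G19430, also LEA-related, was at 492, 474 and 476 FPKM in Col-0, at 756, 609 and 819 in seu-3 and at 202, 293 and 182 in wox5-1, and AT4G27400 changed by -0.83 in wox5-1 and 0.64 in seu-3. None of the 3 overlapped between genotypes. SAG21, a small LEA-type protein tied to senescence and oxidative stress, was at 258, 339 and 269.5 FPKM in Col-0, at 499.9, 467 and 425 in seu-3 and at 152, 155 and 153 in wox5-1. Its wox5-1 libraries were nearly equal and all below Col-0.

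Water channels were the other abundant class. TIP2;1, which passes water and ammonia across the vacuole membrane and overlaps AT3G16250, was at 1368, 1402 and 1332 FPKM in Col-0, at 2232, 2198 and 2574 in seu-3 and at 613, 864 and 933 in wox5-1. PIP1;5, of the plasma membrane, was at 462, 553 and 601 FPKM in Col-0, at 852, 850.1 and 903 in seu-3 and at 246, 392 and 332 in wox5-1, and PIP1;4 was at 164, 132 and 110.3 FPKM in Col-0, at 177, 187 and 213 in seu-3 and at 64.8, 78.4 and 108 in wox5-1. The genotypes were separate for each, although PIP1;4 was not called in seu-3 and stands at the edge of the rule. Of the other 15 aquaporins measured, 8 were called lower and 2 higher in wox5-1, and 4 higher and 1 lower in seu-3, beside 13.5% and 6.66% of all genes in the directions of the rule. The median of the 15 was -0.53 and 0.22. Their count lower in wox5-1 depended on single libraries: it was 2 when replicate 2 of Col-0 was left out, 4 for replicate 3 of Col-0 or replicate 1 of wox5-1, and 5 for replicate 1 of seu-3 or replicate 3 of wox5-1, as also with no minimum on the genes fitted. After median-ratio scaling 8 were called higher in seu-3. PIP1;2 was the one other aquaporin called in both directions, at -0.53 and 0.35, calls lost in seu-3 when any Col-0 or seu-3 library was left out or no minimum was set on the genes fitted, and in wox5-1 with replicate 2 of Col-0 left out. PIP2;6 rose in both mutants, by 0.78 and 1.60.

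A non-coding RNA stands among the 128. TAS3 is cut into small trans-acting RNAs that silence the auxin response factors ARF2, ETT (ARF3) and ARF4, and in the root the pathway is known from lateral root growth. TAS3 was at 42.6, 36.4 and 43.2 FPKM in Col-0, at 90.2, 56.8 and 82.4 in seu-3 and at 12.7, 19 and 18.3 in wox5-1, changes of -1.26 ± 0.19 (SE) and 0.87 ± 0.19 (SE). The 3 genotypes did not overlap, with the lowest seu-3 value in replicate 2. Its targets, named after their values were seen, are no members. ETT was at 2.97, 3.49 and 2.8 FPKM in Col-0, at 1.74, 1.56 and 0.681 in seu-3 and at 8.61, 7.08 and 6.1 in wox5-1, the reverse order. It rose in wox5-1 by 1.01 (adjusted p = 0.00956 by limma) and fell in seu-3 by 0.84 (adjusted p = 0.0102), and both calls were made under all 13 alternatives that kept the gene. ARF2 and ARF4 stood at 0.10 and 0.13 in wox5-1 with no call. In seu-3 they stood at -0.32 and -0.51, called at adjusted p of 0.0245 and 0.0173 by limma but not after median-ratio scaling (0.706 and 0.0635). Both calls were lost with replicate 1 of Col-0 or of seu-3 left out, and that of ARF2 also with replicate 2 of Col-0 or replicate 3 of seu-3 left out. Whether small RNAs of TAS3 changed was not measured. The second non-coding entry, AT3G14185, is annotated only as other RNA and changed by -0.82 in wox5-1 and 0.59 in seu-3.

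Precursors of signalling peptides were also present. CLE12 and CLE14 give short secreted CLE peptides, a family known to act through receptor kinases in root and shoot meristems. CLE12 was at 37.5, 27.5 and 24.6 FPKM in Col-0, at 75.3, 52.7 and 70.6 in seu-3 and at 13.7, 16.4 and 24.3 in wox5-1, and CLE14 at 30, 33.2 and 27.8 FPKM in Col-0, at 84.9, 44.4 and 66 in seu-3 and at 20.2, 14.3 and 18 in wox5-1. Both were separate between genotypes. PSK5, a precursor of the growth peptide phytosulfokine, changed by -1.38 in wox5-1 and 0.52 in seu-3, and PROPEP3, a precursor of a peptide released on wounding, by -1.42 in wox5-1 and 0.61 in seu-3. PSK5 was not called in seu-3 although its libraries did not overlap.

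Several of the genes encode kinases. ARSK1, a kinase known from outer root tissues, was at 17.8, 10.7 and 9.33 FPKM in Col-0, at 23.3, 31.3 and 34 in seu-3 and at 2.79, 4.75 and 8.12 in wox5-1. CIPK17, which is activated by calcineurin B-like calcium sensors, was at 5.4, 4.48 and 5.37 FPKM in Col-0, at 14.1, 10.6 and 12.7 in seu-3 and at 1.77, 2.01 and 1.3 in wox5-1. The calcium-dependent kinase CPK16 changed by -0.83 in wox5-1 and 0.74 in seu-3 and was called in neither, and the receptor-like kinase CRK11, which overlaps AT4G23180, by -0.74 in wox5-1 and 0.72 in seu-3, with Col-0 and wox5-1 overlapping. AT4G09760 and AT3G15890, protein kinases that both overlap a neighbouring gene, changed by -0.98 and -1.21 in wox5-1 and by 0.94 and 0.71 in seu-3. AT2G47010, which RefSeq describes as a calmodulin-dependent kinase, was at 6.32, 5.53 and 5.83 FPKM in Col-0, at 12.3, 11.5 and 15.5 in seu-3 and at 1.62, 2.07 and 1.61 in wox5-1, without overlap. ARSK1 varied widely in Col-0, yet its lowest Col-0 library was above every wox5-1 library.

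Among the transcription regulators described here AT4G13620 was the most abundant, with the DNA-binding domain of the ethylene response factor class, at 106, 109 and 78.7 FPKM in Col-0, at 133, 136 and 148 in seu-3 and at 42.9, 77.8 and 53.3 in wox5-1. BNQ3, a small helix-loop-helix protein that binds partners but not DNA, was at 14.8, 7.95 and 13 FPKM in Col-0, at 31.3, 28.5 and 57.5 in seu-3 and at 5.38, 5.64 and 4.25 in wox5-1. PAT1, a GRAS protein of phytochrome A signalling, was at 16.5, 15.3 and 14.7 FPKM in Col-0, at 23.5, 21.8 and 23.7 in seu-3 and at 5.81, 5.6 and 6.16 in wox5-1. These 3 were separate between genotypes, and BNQ3 was highest in seu-3 replicate 3. LAF1, a MYB factor also of phytochrome A signalling, and NAC001 changed by -0.96 and -0.82 in wox5-1 and by 0.60 and 0.53 in seu-3. AT1G22810, of the same class as AT4G13620, overlapped between Col-0 and wox5-1.

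Genes of the cell wall were also present. The pectin-cutting rhamnogalacturonate lyase AT4G37950 was at 9.48, 7.48 and 7.03 FPKM in Col-0, at 18.2, 16.4 and 20.6 in seu-3 and at 0.163, 0.65 and 0.499 in wox5-1, one of the deepest losses. FLA13, an arabinogalactan protein with a fasciclin domain, was at 213, 223 and 209.6 FPKM in Col-0, at 397, 396 and 399.7 in seu-3 and at 106, 130.4 and 131 in wox5-1. The 3 seu-3 values of FLA13 were nearly equal and well above Col-0. The pectinesterase PE11 was at 13.1, 12.5 and 13.7 FPKM in Col-0, at 24.8, 26 and 33.8 in seu-3 and at 5.77, 8.19 and 4.64 in wox5-1. The cellulase-family enzymes GH9B5 and GH9B17 changed by -0.77 and -1.39 in wox5-1 and by 0.60 and 0.58 in seu-3. AT5G16920, a fasciclin-like protein, changed by -1.39 in wox5-1 and 0.84 in seu-3, and ENODL19, an early nodulin-like protein, by -0.75 in wox5-1 and 0.61 in seu-3. These 7 were separate in both comparisons, as were 110 of the 128 and 4.65% of all genes.

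Among the transporters UMAMIT44, of a family that exports amino acids, was at 7.52, 8.03 and 9.66 FPKM in Col-0, at 17.9, 14.3 and 17.3 in seu-3 and at 1.25, 1.35 and 1.32 in wox5-1. AAP5, which takes up basic amino acids, was at 26.5, 26.6 and 22.7 FPKM in Col-0, at 44.1, 44.7 and 48.3 in seu-3 and at 12.3, 15.2 and 13.6 in wox5-1. SWEET2, which moves sugar into the vacuole of root cells, was at 13.8, 16.3 and 19 FPKM in Col-0, at 28.1, 23.2 and 24.9 in seu-3 and at 5, 9.68 and 7.71 in wox5-1. All 3 were separate between genotypes, as were the amino acid transporter-like AT3G01760 (-0.78 in wox5-1 and 0.82 in seu-3) and AT2G26690, of the nitrate and peptide transporter class (-1.56 in wox5-1 and 0.80 in seu-3). AT3G23870, described as a magnesium transporter, changed by -1.05 in wox5-1 and 0.66 in seu-3 and was not called in seu-3.

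Metabolic genes included NIC3, a nicotinamidase of the salvage route to NAD, at 76.3, 66.8 and 60.4 FPKM in Col-0, at 169, 166 and 181 in seu-3 and at 38.9, 40.1 and 34.4 in wox5-1. Its wox5-1 libraries were all below Col-0 and its seu-3 libraries all far above. PR4, a chitin-binding protein induced in defence, was at 19.7, 23.8 and 23.7 FPKM in Col-0, at 69.7, 55.1 and 62.6 in seu-3 and at 10.1, 15 and 10.7 in wox5-1. ASP4, an aspartate aminotransferase, and SQP2, a squalene monooxygenase-like enzyme of sterol and triterpene synthesis, changed by -1.35 and -0.86 in wox5-1 and by 0.55 and 0.59 in seu-3. The acyltransferase AT5G47980, which lies beside the genes for thalianol, a root triterpene, was at 21.6, 23.9 and 26.4 FPKM in Col-0, at 37.2, 36.4 and 51.6 in seu-3 and at 11, 16.6 and 14.3 in wox5-1. Of its neighbours, named after their values were seen, the thalianol synthase THAS1 and the oxidases CYP708A2 and CYP705A5 fell in wox5-1 by 1.03, 1.38 and 0.63 and stood at 0.41, -0.08 and 0.25 in seu-3 without a call. The acyltransferase AT5G47950 of the same neighbourhood rose in seu-3 by 0.54 (adjusted p = 0.0265 by limma), a call lost with replicate 2 of Col-0 or any seu-3 library left out, and was not called in wox5-1, at -0.46. CYP705A5 lost its wox5-1 call with replicate 2 of Col-0 or replicate 1 of wox5-1 left out, and THAS1 and CYP705A5 were called higher in seu-3 after median-ratio scaling, THAS1 also with replicate 1 of wox5-1 left out.

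MGD3, which makes galactolipids that replace phospholipids when phosphate is short, was the one member in a list of 14 measured phosphate genes and sits at the edge of the rule. It was at 7.13, 6.13 and 5.86 FPKM in Col-0, at 9.74, 8.78 and 9.8 in seu-3 and at 2.04, 3.31 and 3.17 in wox5-1, in separate ranges. Of the other 13, 6 were called lower and none higher in wox5-1 by limma (none higher also at an unadjusted p below 0.05, which gave 0), and 3 were called higher and 3 lower in seu-3. Over all genes 13.5% were called lower and 13.7% higher in wox5-1, and 6.66% higher and 34.2% lower in seu-3. The phosphate importers PHT1;1 and PHT1;4 were called in both directions, at -0.86 and 0.38 and at -0.63 and 1.19. The seu-3 call of PHT1;1 was lost when any Col-0 library or replicate 1 or 3 of seu-3 was left out, and the wox5-1 call of PHT1;4 with replicate 2 of Col-0 or replicate 1 of wox5-1 left out. In contrast, PHO1, which loads phosphate into the xylem, fell in seu-3 by 1.72. The count lower in wox5-1 was 2 with replicate 2 of Col-0 left out and 3 with replicate 1 of wox5-1 left out. The count higher in seu-3 was 1 when replicate 3 of Col-0 or replicate 1 or 3 of seu-3 was left out, and 5 after median-ratio scaling. Over all 18 lists, 218 genes were tested and 11 were called lower in wox5-1 and higher in seu-3, of which 4 are members. Of all genes, 1.82% had both calls. The other 7 were PHT1;1, PHT1;4, NIR1, PIP1;2, MYB51, BGLU23 and HB7. The wox5-1 calls of MYB51 and HB7 were lost when replicate 1 or 2 of Col-0 or replicate 1 or 3 of wox5-1, among others, was left out. That count of 11 became 3 or 6 with replicate 2 or 3 of Col-0 left out, 7 with replicate 1 of seu-3 left out and 28 after median-ratio scaling. The lists for jasmonate, root hairs, epidermal fate, Casparian strip and suberin, iron, nitrogen, glucosinolates, touch, abscisic acid, phenylpropanoids, xylem and phloem, the stem cell niche, mitosis, pollen and photosynthesis held no member. In the mitosis list 10 of 18 genes were called higher in wox5-1 and 16 lower in seu-3, beside 13.7% and 34.2% of all genes.

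Some members rest on 1 or few libraries. GSTF2, a glutathione transferase of detoxification with a near-identical copy in the genome and an overlap with AT4G02510, was at 13.2, 23.5 and 27.1 FPKM in Col-0, at 104, 25.1 and 16.2 in seu-3 and at 7.37, 10.3 and 6.66 in wox5-1. With replicate 1 of seu-3 left out its seu-3 change was -0.012 instead of 0.76. GSTF7, of the same family, was at 0.981, 4.15 and 5.64 FPKM in Col-0, at 51.6, 11.9 and 2.1 in seu-3 and at 0.212, 0.449 and 1.23 in wox5-1, and its seu-3 libraries also spread across the Col-0 range, with replicate 1 highest. AT1G51035, an uncharacterized protein, was at 12.3, 7.77 and 11.4 FPKM in Col-0, at 57.5, 42 and 50.1 in seu-3 and at 0, 15.9 and 7.61 in wox5-1; a 0 in a list of FPKM can be a failed estimate, and with replicate 1 of wox5-1 left out its wox5-1 change was 0.09 instead of -1.11. AT4G28088 and AT1G55365 overlapped between genotypes in both comparisons. In all, 18 of the 128 overlapped in at least 1 comparison, and 26 overlap another gene that the file lists. AT3G55290, GSTF2 and AT1G23970 have a copy at 90% identity or more, so their fragments may be shared with it.

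Length, annotation and position were not part of the rule. The median transcript length of the 128 was 1325.5 bases, against 1722 for the other genes of at least 5 FPKM. By RefSeq description, 126 are protein coding, 73 have no name beyond the locus and 12 are called uncharacterized protein. Members were 3 of 39 lipid transfer genes and 2 of 31 glutathione transferase genes, counted among genes averaging 5 FPKM or more, of which 128 of 12057 were members in all. Those 2 glutathione transferases, GSTF2 and GSTF7, overlapped between genotypes in at least 1 comparison. No member was among 299 ribosomal protein, 232 zinc finger, 69 homeobox, 47 class III peroxidase or 29 WRKY genes counted alike. The ribosomal protein genes had medians of 0.72 in wox5-1 and -1.10 in seu-3, against both directions of the rule. At 128 members in 12057 genes, a small family can lack a member by its size alone, so nothing is read from these absences. The families given are examples. Chromosome 4 held 20.3% of the members and 15.1% of the genes of at least 5 FPKM, chromosome 1 20.3% and 25.5%, chromosome 3 held 29 of the members (22.7%) and 2414 of the 12057 genes, and chromosomes 2 and 5 held 17.2% and 19.5% against 15.2% and 23.7%.

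Motif shares in the 250 bases before the start differed between members and all genes of at least 5 FPKM, as described without a test. The larger set was not matched to the members. Its 299 ribosomal protein genes, with medians of 0.72 in wox5-1 and -1.10 in seu-3, moved against the rule. Their part in these shares was not tested. Site II, TGGGCC, known from promoters of ribosomal and dividing-cell genes, was in 3.97% of the 126 member promoters, in 17.4% of the 11870 promoters of protein-coding genes of at least 5 FPKM and in 13.7% of all 27443 promoters. The core AACGG of the mitosis-specific activator element was in 13.5%, 21.7% and 20.6%, and the telo-box AAACCCTA in 0.794%, 3.26% and 4.49%. In the other direction, the TATA box TATAAA was in 57.9%, 46.9% and 47.3%, the W-box TTGACT, the core bound by WRKY factors, in 27.8%, 19.1% and 19.1%, and P1BS, the phosphate starvation motif GNATATNC, in 8.73%, 5.43% and 5.46%. The W-box TTGACC was in 14.3%, 12.6% and 12.2%, the auxin response element TGTCTC in 12.7%, 10.4% and 10.9%, and the G-box CACGTG in 7.94%, 7.29% and 6.49%. GCCGCC, the GCC-box, was in no member promoter, against 1.79% and 1.87%.

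**Figure D5:**
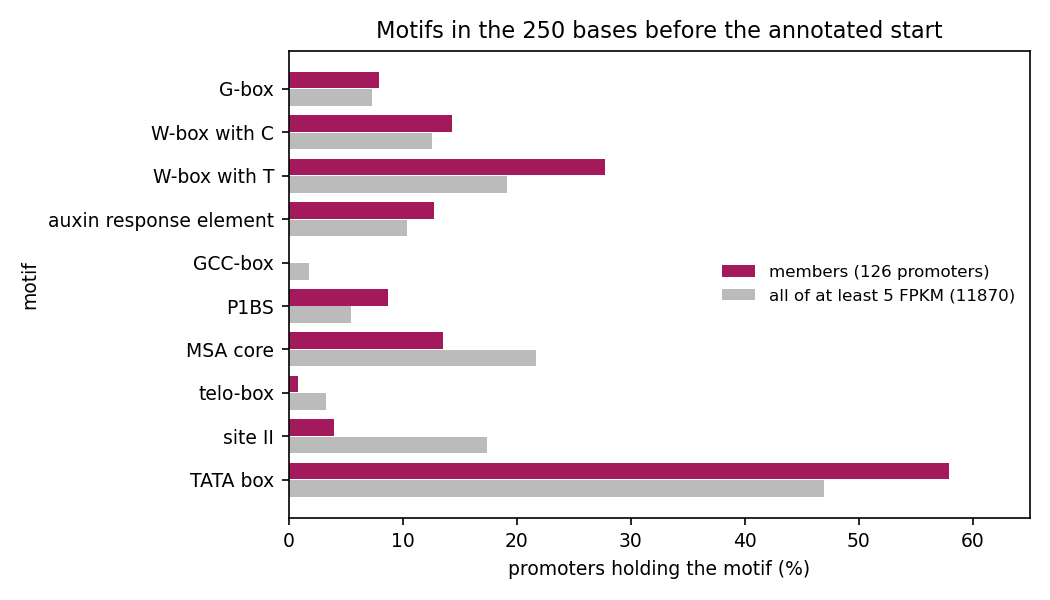
Share of promoters, in percent, that hold each motif on either strand in the 250 bases before the annotated start, for 126 members (purple) and for the 11870 promoters of genes averaging 5 FPKM or more (grey). The gap is widest for site II, at 3.97% against 17.4%, and the TATA box is the most frequent motif in both, at 57.9% and 46.9%.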

How the data were processed

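RNA was sequenced from root tips of 9 samples, 3 each of Col-0, seu-3 and wox5-1, grouped by genotype as the labels give it. The authors deposited 1 table of FPKM for 33560 identifiers; per the submitters' processing notes Bowtie, Cufflinks and the TAIR10 build were used, with versions and options not given in the sources used here. No column was left out. FPKM do not hold the number of fragments, so no count model and no counting interval was used.

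The rule for the 128 genes was applied to log2(FPKM + 1). Genes averaging at least 1 FPKM were fitted with limma 3.58.1 (R 4.3.3), genotype alone over the 9 libraries with an intensity trend, and adjusted by Benjamini-Hochberg; this fit gives every standard error and adjusted p. A change on this scale understates that of a scarce gene. The members, the 18 gene lists and the groups by role were chosen with earlier results of these data known. Named were WOX5 and SEU, the 12 members with the largest smaller change, the 6 most abundant in Col-0, members in a list, neighbouring members, regulators, kinases and peptides by abundance, genes at the thresholds and leading list genes; others were chosen after their values were seen. Alternatives were another pseudocount, 2 other minimum levels, median-ratio scaling, a replicate block and leaving out each library.

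Names, positions and promoters are from RefSeq's TAIR10.1 annotation, used for names and sequence; transcripts were compared with blastn 2.17.0, and a near-identical copy is one of at least 90% identity over at least 50% of the transcript. Motifs were searched on both strands of the 250 bases before the annotated start; one match may overlap another. The fit was also run on simulated data in which only a small share of genes was shifted. That setting is unlike the broad seu-3 change here, so nothing is concluded from it for these data. Python 3.11.15 with pandas 2.3.3, numpy 2.4.6, scipy 1.17.1 and matplotlib 3.10.9 was used for the rest.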

Additional observations from a re-analysis of the deposited data

How the results depend on the processing

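The rule gave 159 genes with a pseudocount of 0.1 FPKM, 170 with a minimum of 1 FPKM, 90 with a minimum of 10 FPKM and 96 to 191 when single libraries were left out. Median-ratio scaling, whose factors were 0.830 to 0.917 in seu-3 and 1.06 to 1.08 in Col-0, gave 286 genes, a median seu-3 change of 0.98 for the 128, 3191 genes called higher in seu-3 and 28 list genes called in both directions; the cause was not tested. When single libraries were left out, genes called lower in wox5-1 numbered 997 to 2358, genes called higher there 524 to 3270, genes called higher in seu-3 681 to 1305, genes called lower there 3894 to 5956, and list genes called in both directions 3 to 13. Of the 128, 95 were called in both contrasts, 64 to 96 with a library left out and 114 after median-ratio scaling; nothing is read from these counts.

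Of 1568 values of the 56 named members under the 14 alternatives, 1475 moved by less than the spread between libraries, 91 moved by more and 2 changed sign. The seu-3 change of GSTF2 ran from -0.012 with replicate 1 of seu-3 left out to 1.29 with replicate 3 left out. The wox5-1 change of AT1G51035 ran from -1.95 with replicate 2 of wox5-1 left out to 0.091 with replicate 1 left out. Both rest on 1 library.

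With the replicate number as a block, which the labels do not tie to a shared sowing or day, the rule gave the same 128 genes; 88 of them were called in both contrasts, and 1754 genes were called lower in wox5-1, 1432 higher there and 935 higher in seu-3. The block also ended the seu-3 calls of PHT1;1 and ARF2 and the wox5-1 calls of AT4G12510 and MYB51, and left 1 of the other 13 phosphate genes called higher in seu-3 instead of 3. Same-numbered libraries deviated from their group means with correlations of -0.26 to 0.19, and not every library correlated best with its own number, so the block stayed an alternative. The number of fragments behind each FPKM, and so the counting error of the scarcer genes, is unknown.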
